A study of Mus musculus with 9 samples.

Results

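The livers of mice that had recovered from thioacetamide (TAA), a hepatotoxic compound used to produce fibrosis, were compared with the livers of mice that had only received saline. The comparison used 6 of the 9 small RNA libraries of the series, namely recovery (n = 3) and control (n = 3), and all rows of the deposited miRNA table that had enough reads to test, which was 391 of 1140. All mice were male C57BL/6 animals, 8 weeks old at the start, and each library came from the liver of a different mouse. Control mice were injected intraperitoneally with normal saline for 8 weeks. Recovery mice were injected with TAA for 8 weeks and then left untreated for another 8 weeks. The TAA group (n = 3), killed at the end of the injections, is used below only to say which miRNAs the treatment had moved. Recovery mice were killed 8 weeks later than control mice, so what remained of the injury and the greater age at death cannot be told apart. In RNA of whole tissue, a smaller number of cells of a type and less of a miRNA per cell cannot be told apart either.

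miRNAs are RNAs of about the same short length that guide Argonaute proteins to messenger RNAs, mostly through bases 2 to 8 of the miRNA, which are called the seed. miRNAs that share a seed can bind the same sites, and miRNAs cut from the same primary transcript tend to appear together. In the liver, hepatocytes carry very high levels of miR-122, miR-192 and miR-148a, the biliary epithelium carries the miR-200 family, hepatic stellate cells and fibroblasts carry miR-199a and miR-214, and red cells carry miR-451a and miR-486. The imprinted Dlk1-Dio3 locus holds one of the largest miRNA clusters of the mouse genome, which is expressed from the maternal chromosome and is known for high activity in embryonic tissue and brain.

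The sequences of the miRNAs on which the comparison turned are given here, with the seed in capitals. They are the mature sequences of RefSeq for the mouse build GRCm38.p6, which held 935 of the 1106 known miRNAs of the table. The first are members of the miR-200 family, of which 4 of 7 tested members were called above control by the rule given below. miR-200c-3p and miR-141-3p were not called. miR-200b-3p, miR-200c-3p and miR-429-3p have the seed AAUACUG, whereas miR-200a-3p and miR-141-3p have the seed AACACUG.
miR-200b-3p: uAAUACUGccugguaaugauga
miR-429-3p: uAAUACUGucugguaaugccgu
miR-200c-3p: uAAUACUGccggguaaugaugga
miR-200a-3p: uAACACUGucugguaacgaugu
miR-141-3p: uAACACUGucugguaaagaugg

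The second set was above control outside the miR-200 family and the Dlk1-Dio3 locus. miR-181d-5p is shown with miR-181c-5p, its neighbour on chromosome 8, which has the same seed but was not called.
miR-199a-3p: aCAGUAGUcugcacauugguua
miR-181d-5p: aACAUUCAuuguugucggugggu
miR-181c-5p: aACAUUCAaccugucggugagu
miR-31-5p: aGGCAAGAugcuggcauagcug
miR-582-3p: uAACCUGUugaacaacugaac

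The third set was below control. These 4 seeds are all different.
miR-451a: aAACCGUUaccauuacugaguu
miR-205-5p: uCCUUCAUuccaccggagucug
miR-363-3p: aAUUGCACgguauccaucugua
miR-881-3p: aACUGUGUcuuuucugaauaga

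The fourth set are miRNAs of the Dlk1-Dio3 locus. The first 4 were the most abundant in recovery liver that came from separate hairpins, and the last 2 are the other arms of the miR-379 and miR-411 hairpins and were the only called pair of the locus with a seed in common.
miR-411-5p: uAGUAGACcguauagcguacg
miR-379-5p: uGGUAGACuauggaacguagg
miR-434-5p: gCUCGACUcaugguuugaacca
miR-127-3p: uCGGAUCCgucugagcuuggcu
miR-379-3p: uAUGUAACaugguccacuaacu
miR-411-3p: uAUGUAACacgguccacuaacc

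The last set are miRNAs that TAA had changed and that were back within the limits set below for a restored miRNA.
miR-218-5p: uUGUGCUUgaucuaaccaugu
miR-34a-5p: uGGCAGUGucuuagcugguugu
miR-29c-3p: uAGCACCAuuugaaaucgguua
miR-455-3p: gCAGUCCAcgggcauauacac

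The deposited counts summed to between 9949711 and 12983378 per control library and between 12211930 and 12462838 per recovery library. Levels below are counts relative to the library total on the usual CPM scale, corrected by the TMM factors of these 6 libraries, given as mean ± SD (n = 3) where they are summarised. Log2 fold changes are recovery over control and carry a standard error (SE) from the model. The false discovery rate (FDR) is the Benjamini-Hochberg adjusted p of the edgeR quasi-likelihood test over the 391 miRNAs. A miRNA was called at an FDR below 0.05, and was a differentially expressed miRNA (DEM) if it also changed at least 2-fold.

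Recovery liver still differed from saline liver in 55 of 391 tested miRNAs (14.1%). Of these, 47 were higher in recovery (12%) and 8 were lower (2.05%). The change was at least 2-fold for 44 (11.3%) and smaller for 11 (2.81%), with 6 of the small changes upward and 5 downward. The lists of Dlk1-Dio3 miRNAs held 38 of the 55, and the 17 others were 9 miRNAs that were higher and 8 that were lower (4.84% of the 351 tested outside these lists). Rows below 10 counts in every control library could be tested only if recovery was higher, as in 18 of the 40 tested Dlk1-Dio3 rows. For such rows the upward direction was fixed by the filter, so the upward share is a description. The 3 recovery mice were all above the 3 control mice for 66 miRNAs (16.9%) and below them for 48 (12.3%). The median log2 fold change over all 391 was -0.03, and it was 0.16 when libraries were scaled by their total counts, a shift of 0.18 that applies to the recovery fold changes below.

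**Figure D1:**
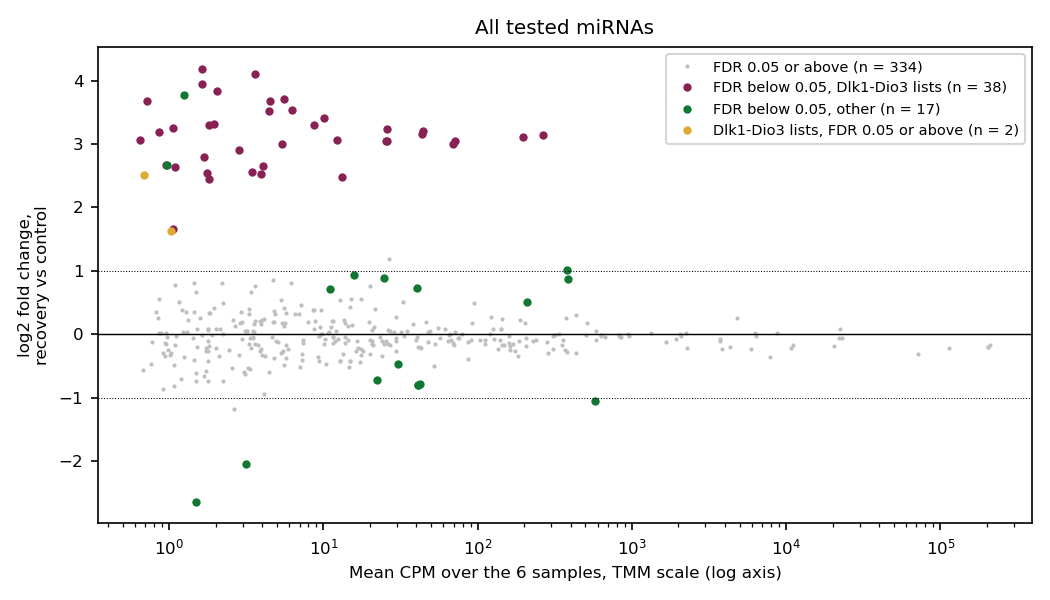
Log2 fold change of recovery over control against the mean CPM of the 6 libraries (log axis) for all 391 tested miRNAs, with 1 point per miRNA and dotted lines at a 2-fold change. The 38 called miRNAs of the Dlk1-Dio3 lists form a band between 1.66 and 4.19, while 6 of the 17 other calls are past 2-fold, from -2.64 for miR-363-3p to 3.77 for novel_370.

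TAA itself had changed 175 of 420 tested miRNAs by at least 2-fold against control (41.7%), 105 upward (25%) and 70 downward (16.7%). These directions depended on the scaling, because the TAA libraries had TMM factors far from those of the controls. With libraries scaled by their totals, TAA fold changes were higher by a median of 1.12 on the log2 scale, and 241 DEMs were upward and 4 downward. TAA values below are on the TMM scale, on which a miRNA lowered by TAA was lowered relative to most other miRNAs. A DEM of TAA was counted as restored when its FDR in recovery was 0.05 or above and the 95% interval of its recovery change lay wholly within 2-fold, and as residual when it was called in recovery in the direction TAA had moved it. By this rule 77 DEMs were restored, 46 were residual, 34 were undecided because the interval reached past 2-fold, and 18 had too few counts in control and recovery to be tested. Among the DEMs lowered by TAA, 52 were restored and 2 were residual, which were miR-451a and miR-881-3p. Among those raised by TAA, 25 were restored and 44 were residual, and 36 of the 46 residual DEMs belonged to the Dlk1-Dio3 lists. Raised DEMs outside those lists numbered 65, of which 8 were residual, 25 restored and 17 undecided. All 18 untested DEMs had been raised by TAA. A raised DEM with few control reads could be classed only if it stayed higher in recovery. The shares of restored and residual DEMs are therefore not comparable between raised and lowered ones. With library totals, 99 of the raised DEMs were restored and 55 residual, and 2 of the lowered ones were restored and 0 residual. The same control mice stand in both comparisons, so the values of TAA and recovery for a miRNA share the error of the controls.

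The miRNAs were also sorted into 53 families or clusters. A family was restored (18 families) when its DEMs of TAA were all restored and no member was called in recovery, residual (12) when at least 1 member was called, undecided (10) when neither held, and not moved (13) when it had no DEM on the TMM scale and no call. Unlike the rule for single miRNAs, the residual class of families did not require a DEM of TAA or its direction. miR-205 and miR-106a-363 had no DEM of TAA, and the called member of miR-31 was not a DEM. Of the called red cell miRNAs only miR-451a was a DEM of TAA. In miR-17-92 the called miR-17-5p was lower in recovery but at 0.65 in TAA.

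**Figure D2:**
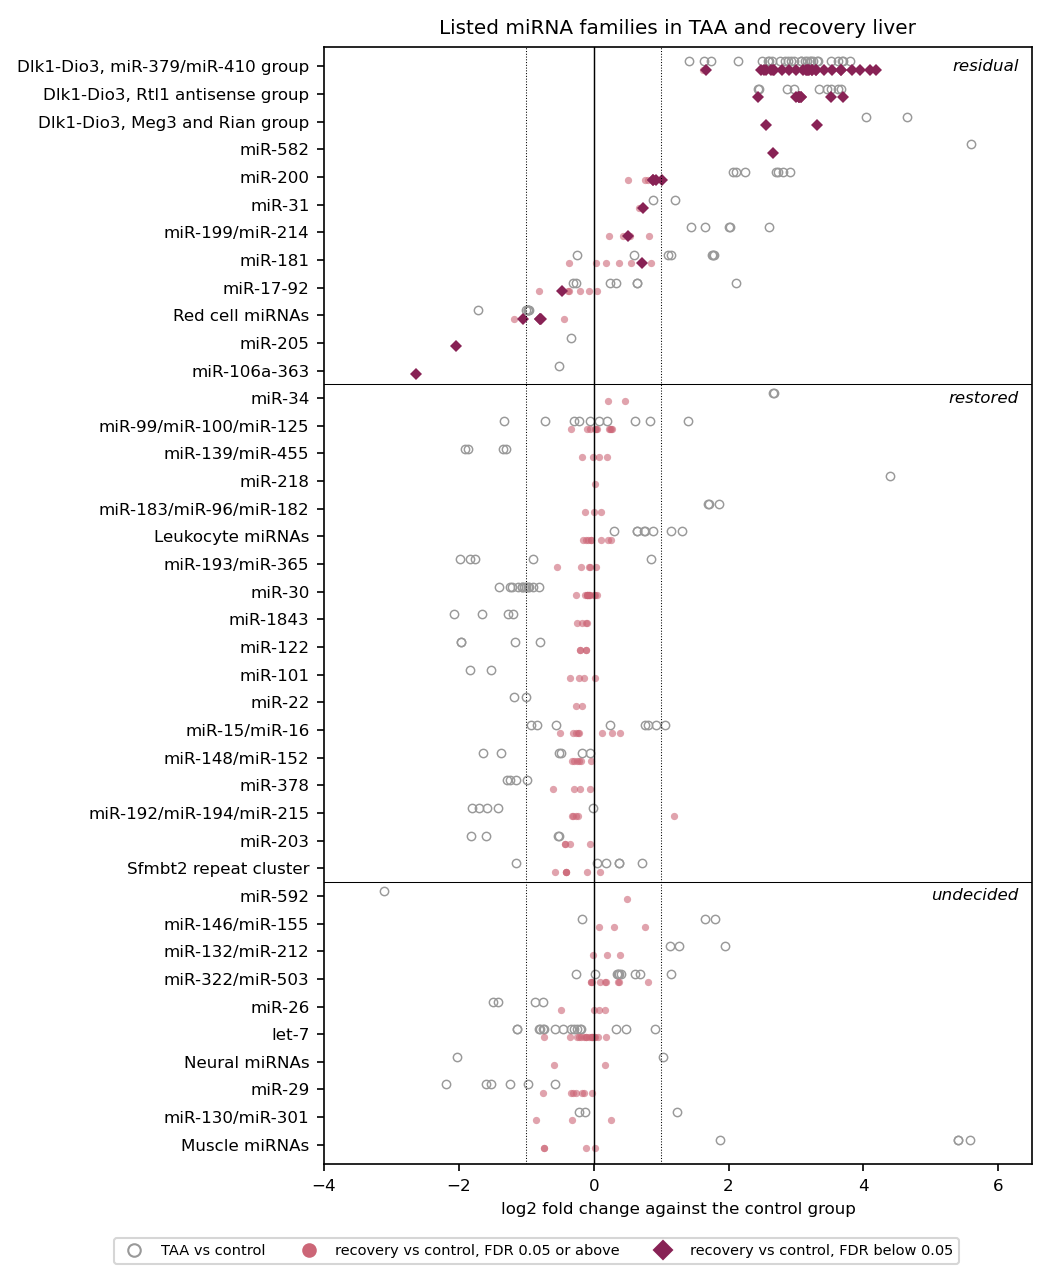
Log2 fold changes against control for the tested members of the 40 families that TAA or recovery had moved, with 1 symbol per miRNA. Open circles are TAA, filled circles and diamonds are recovery, and dotted lines mark 2-fold. The restored families have their recovery values around 0, with miR-215-5p at 1.19 the farthest from it. On the TMM scale shown, the 3 Dlk1-Dio3 groups have medians of 3.07, 3.34 and 4.34 in TAA and of 3.16, 3.05 and 2.93 in recovery, from the top.

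The largest remaining difference was in the Dlk1-Dio3 locus on chromosome 12 (GRCm38). The locus runs from Dlk1 at chr12:109452823-109463336, a paternally expressed gene for a membrane protein, to Dio3 at chr12:110279068-110281097, which encodes the thyroid hormone-inactivating deiodinase. Between them lie the maternally expressed noncoding genes Meg3, Rian and Mirg and, on the opposite strand, the retrotransposon-derived Rtl1. The lists held 86 miRNA rows of this locus, and 40 had enough reads to test. In 18 of the 40 every control library had fewer than 10 counts, so those miRNAs entered the test through their recovery counts and had to differ to be tested. Counts over the tested rows are therefore a description. In 14 rows every control library had at least 10 counts, and in each of the 14 the lowest recovery mouse was above the highest control mouse. Over all tested miRNAs this held for 66 of 391 (16.9%).

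miR-411-5p, the most abundant of them, was at 33.9, 75.4 and 53.3 CPM in the control mice and at 368.9, 456.7 and 611 CPM in the recovery mice. Its log2 fold change was 3.15 ± 0.28 (edgeR FDR = 3.62e-05), against 2.92 for TAA over control. With library totals the values were 3.35 in recovery and 4.07 in TAA. miR-379-5p, the first miRNA of the distal cluster, was at 26.2, 56.8 and 39.7 CPM in control and at 259.5, 302.7 and 489.2 CPM in recovery. The groups did not overlap for either miRNA, and recovery replicate 3 was the highest library for both. The log2 fold change of miR-379-5p was 3.10 ± 0.31 (edgeR FDR = 5.37e-05).

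Other members of the distal group had lower levels and log2 fold changes of similar size. miR-299a-3p was at 1.11, 1.81 and 2.36 CPM in control and at 17.3, 16.0 and 22.2 CPM in recovery, a log2 fold change of 3.42 ± 0.29 (edgeR FDR = 3.42e-05). miR-409-3p was at 3.11, 6.94 and 5.03 CPM in control and at 44.9, 38.9 and 56.9 CPM in recovery. Its log2 fold change was 3.24 ± 0.28 (edgeR FDR = 3.42e-05). The groups of both were far apart, with no recovery mouse near the control range. miR-381-3p was at 4.30, 13.6 and 8.68 CPM in control and at 59.0, 79.9 and 101.6 CPM in recovery (log2 fold change 3.20 ± 0.36, edgeR FDR = 0.000109). For miR-541-5p the control mice had 4.54, 11 and 11.1 CPM and the recovery mice 74.4, 74.7 and 86.5 CPM (log2 fold change 3.16 ± 0.29, edgeR FDR = 3.68e-05).

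The Rtl1 antisense group, most of whose hairpins are transcribed opposite to Rtl1, had 9 of 9 tested members called upward with a median of 3.05. Over all tested miRNAs 12% were called upward, but rows low in every control library had to be higher in recovery to be tested. miR-434-3p was at 2.39, 4.16 and 1.29 CPM in control and at 19.8, 16.8 and 29.2 CPM in recovery (log2 fold change 3.07 ± 0.37, edgeR FDR = 0.000166). miR-136-3p was at 3.74, 7.47 and 5.57 CPM in control and at 38.9, 45.4 and 53.6 CPM in recovery (log2 fold change 3.05 ± 0.25, edgeR FDR = 3.42e-05). The row of miR-3071-5p, which with miR-3071-3p lies opposite to miR-136 on the strand of Rtl1, held nearly the same counts as miR-136-3p, so reads of these rows cannot be assigned to one of them. miR-127-3p rose from 15.5 ± 5.25 to 123.4 ± 29.5 CPM (n = 3 each, log2 fold change 2.995 ± 0.26, edgeR FDR = 3.42e-05).

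In the miR-379/miR-410 group 27 of 29 tested members were called upward with a median of 3.16, where 12% of all tested miRNAs were. Both tested members of the Meg3 and Rian group were called, miR-341-3p at 3.32 ± 0.53 (edgeR FDR = 0.00113) and miR-370-3p at 2.55 ± 0.38 (edgeR FDR = 0.000753). Their control means were 0.33 and 0.49 CPM, so both had to be higher in recovery to be tested. Across the locus 18 of the 40 tested rows were below 10 counts in every control library, so these counts of calls are a description. The members not called were miR-154-5p, with a log2 fold change of 2.50 and an edgeR FDR of 0.0562, and miR-329-5p, with 1.62 and 0.316. For the 36 called members that were also tested in TAA the median on the TMM scale was 3.09 in recovery and 3.14 in TAA. With library totals the medians of the miR-379/miR-410, Rtl1 antisense and Meg3 and Rian groups were 4.206, 4.475 and 5.455 in TAA. The recovery medians of these groups on that scale were 3.352, 3.249 and 3.107, below those of TAA. Recovery replicate 3 was the highest recovery library for 36 of the 38 and replicate 2 for the other 2. Summed over the 40 tested rows, the locus gave 121.4, 254.4 and 175.9 CPM in control and 1248, 1450 and 2023 CPM in recovery. These were 0.0117% to 0.0232% of the counts of a control library and 0.121% to 0.220% of those of a recovery library.

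**Figure D3:**
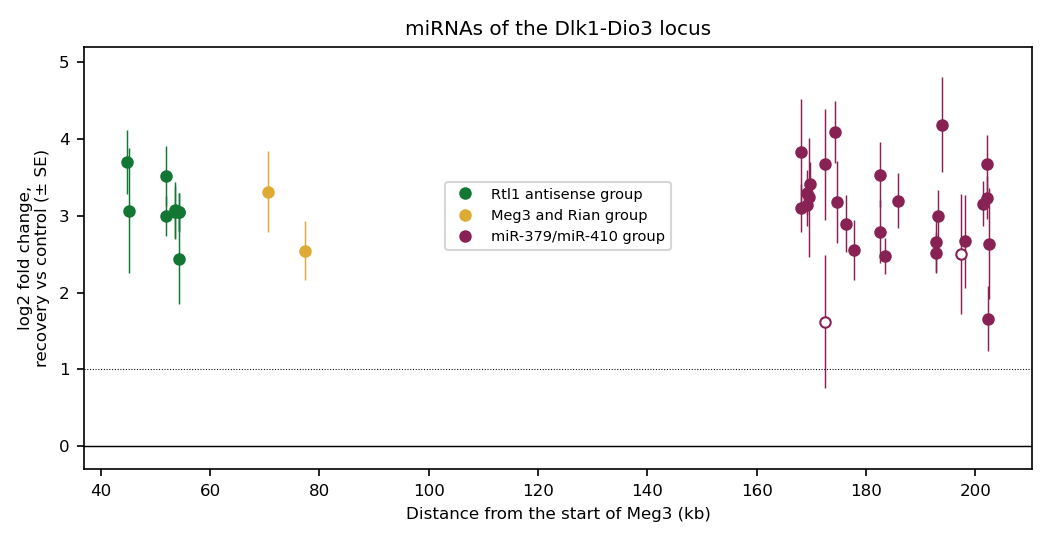
Log2 fold change of recovery over control (± SE) for the 38 tested miRNAs of the Dlk1-Dio3 lists with a known position, against the distance from the start of Meg3 in kb. Filled points were called and open points were not, the dotted line is at 2-fold, and all 3 groups lie around 3 over the whole stretch from 44.8 kb onward.

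In 12 hairpins both arms were tested, and their log2 fold changes differed by a median of 0.48 and by at most 2.05, between the arms of miR-329. The 36 called members with a known sequence carried 35 different seeds, and only miR-379-3p and miR-411-3p, printed above, had the same one. Among the 46 rows of the lists that were too low to test, 41 held at least 1 count in the 6 libraries. Each of the 41 had more counts in recovery than in control, with 463 against 46 counts in sum. How many of all 749 untested rows had more counts in recovery was not counted. These counts were not corrected for library totals either, so they are a description. Leaving out 1 library at a time kept 32 of the 38 calls in all 6 fits. In these refits too, rows low in every control library could be tested only if recovery was higher. For the 18 rows below 10 counts in every control library, a kept call is therefore a description. The 6 lost at least once (miR-299a-5p, miR-369-3p, miR-369-5p, miR-496a-3p, miR-540-3p and miR-3071-3p) were all under 3.1 CPM in recovery, and their FDR lay between 0.0517 and 0.112 where lost. Every library caused such losses, from 2 without control replicate 2, control replicate 3 or recovery replicate 1, through 3 without recovery replicate 2 and 4 without control replicate 1, to 6 without recovery replicate 3.

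The miR-200 family, which keeps epithelial cells epithelial by repressing Zeb1 and Zeb2 and marks the bile ducts in liver, kept residual differences around 2-fold and below. TAA had raised all 7 tested members by at least 2-fold, with log2 fold changes of 2.07 to 2.90. In recovery 4 of the 7 were called, all upward, where 12% of all tested miRNAs were called upward, and the median over the 7 was 0.88. miR-200a-3p was at 272.9, 207.2 and 274.4 CPM in control and at 463.5, 518.5 and 537.6 CPM in recovery. The groups were well apart, and the log2 fold change of 1.01 ± 0.13 (edgeR FDR = 0.00026) made it the only member past 2-fold. miR-200b-3p, encoded next to it on chromosome 4, was at 274, 238 and 302.8 CPM in control and at 460.2, 507.7 and 526.7 CPM in recovery, a log2 fold change of 0.88 ± 0.12 (edgeR FDR = 0.000325).

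The third miRNA of that cluster, miR-429-3p, was at 22.06, 11.7 and 17.9 CPM in control and at 29.9, 33.2 and 32.5 CPM in recovery (log2 fold change 0.88 ± 0.22, edgeR FDR = 0.0192). miR-200a-5p, the other arm of the miR-200a hairpin, was at 9.56, 8.97 and 14.0 CPM in control and at 16.8, 21.6 and 23.4 CPM in recovery (log2 fold change 0.93 ± 0.22, edgeR FDR = 0.0164). The calls of these 2 lower members were not kept in every fit that left out 1 library. In these fits the log2 fold change lay between 0.65 and 1.10 for miR-429-3p and between 0.79 and 1.135 for miR-200a-5p. The call of miR-429-3p was lost without control replicate 2, control replicate 3 or recovery replicate 2 (edgeR FDR 0.0566 to 0.0625), and that of miR-200a-5p without control replicate 1, control replicate 2, recovery replicate 2 or recovery replicate 3 (edgeR FDR 0.0549 to 0.0730). miR-200a-3p and miR-200b-3p stayed called in all 6 such fits and in all 11 alternative analyses.

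The other 3 tested members were not called, and they were miR-200b-5p of the chromosome 4 cluster and both tested members of the chromosome 6 cluster. miR-200b-5p had a log2 fold change of 0.51 with a 95% interval from -0.49 to 1.51 (edgeR FDR = 0.606). miR-200c-3p was at 13.7, 12.3 and 18.6 CPM in control and at 26.9, 30.1 and 18.3 CPM in recovery, so that 1 recovery mouse lay within the control range (log2 fold change 0.76 ± 0.23, edgeR FDR = 0.0576). miR-141-3p had a log2 fold change of 0.81 with a 95% interval from 0.04 to 1.59 (edgeR FDR = 0.190). Intervals of this width leave these members undecided, and the difference between the clusters was not tested. Both seeds of the family, AAUACUG and AACACUG, were thus represented among the called members of the chromosome 4 cluster.

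Markers of stellate cells and fibroblasts were mixed. Of the miR-199 and miR-214 hairpins, those of miR-214 and of the chromosome 1 copy of miR-199a lie within Dnm3os, a noncoding transcript of mesenchymal cells, and reads of miR-199a cannot be told from those of its chromosome 9 copy. TAA had raised all 5 tested arms by at least 2-fold. miR-199a-3p, which cannot be told from miR-199b-3p by its mature sequence, was at 168.2, 159.9 and 189.3 CPM in control and at 262.8, 217.8 and 252 CPM in recovery. The groups did not overlap, and the log2 fold change was 0.50 ± 0.12 (edgeR FDR = 0.0147). This call was lost without control replicate 1, control replicate 2 or recovery replicate 3 (edgeR FDR 0.0517 to 0.0999) and in a fit of all 9 samples (edgeR FDR = 0.108). The other arms were not called. miR-199b-5p had 0.81 (edgeR FDR = 0.0716), miR-214-5p had 0.54 (edgeR FDR = 0.190), miR-214-3p had 0.43 (edgeR FDR = 0.190) and miR-199a-5p had 0.22 (edgeR FDR = 0.301). miR-143-3p and miR-145a-5p, the other markers of this list, had log2 fold changes of -0.06 and -0.03.

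Single members of other families were higher by less than 2-fold. miR-31-5p was at 31.5, 29.1 and 30.9 CPM in control and at 66.2, 45.1 and 40.2 CPM in recovery, with recovery replicate 1 well above the other recovery mice. Its log2 fold change was 0.72 ± 0.19 (edgeR FDR = 0.0270), against 0.88 for TAA, which was not a DEM, and the call was lost without control replicate 1, control replicate 2 or control replicate 3 (edgeR FDR 0.0634 to 0.0999). miR-181d-5p, of a family found in leukocytes and endothelium, was at 9.16, 7.37 and 8.46 CPM in control and at 13.2, 13.5 and 14.3 CPM in recovery. The recovery mice were close to each other, and the log2 fold change was 0.71 ± 0.18 (edgeR FDR = 0.0215). That call was lost without control replicate 2, control replicate 3, recovery replicate 2 or recovery replicate 3 (edgeR FDR 0.0538 to 0.126) and in a fit of all 9 samples (edgeR FDR = 0.0985). miR-181c-5p with the same seed had 0.85 ± 0.26 (edgeR FDR = 0.0576), while miR-181a-5p, by far the most abundant of the family at 190.7 ± 11.2 CPM in control (n = 3), had 0.18 ± 0.11 (edgeR FDR = 0.396).

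A pair of low miRNAs outside the lists was also far above control, but both reached the minimum count of 10 only in recovery libraries and so had to be higher there to be tested. miR-582-3p, which lies in an intron of Pde4d, was at 2, 3 and 3 counts in control and at 14, 26 and 27 counts in recovery, a log2 fold change of 2.66 ± 0.48 (edgeR FDR = 0.00279) against 5.59 for TAA. The predicted miRNA listed as novel_370 was at 1, 4 and 0 counts in control and at 23, 30 and 39 counts in recovery, a log2 fold change of 3.77 ± 0.65 (edgeR FDR = 0.00171). The files give no position for novel_370.

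**Figure D4:**
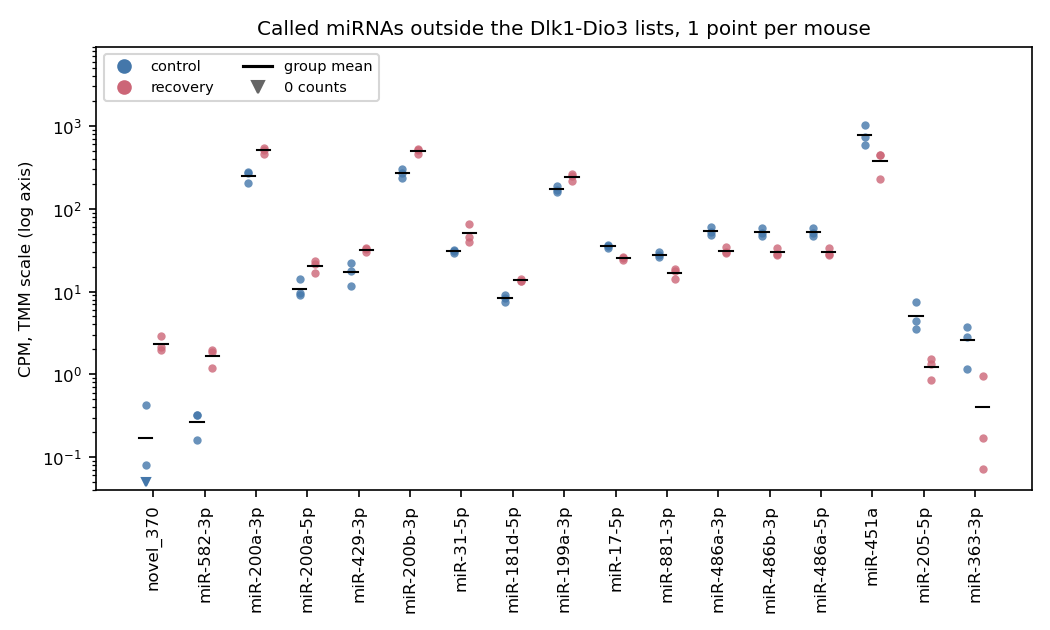
CPM on the TMM scale (log axis) of the 17 called miRNAs outside the Dlk1-Dio3 lists, with 1 point per mouse, a bar at each group mean and a triangle for a library with 0 counts. The 9 miRNAs on the left are higher and the 8 on the right lower in recovery, and the points of the 2 groups do not overlap for any of the 17.

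In all, 8 miRNAs (2.05% of those tested) were called lower in recovery than in saline liver. Red cell miRNAs made up 4 of them, from 6 tested in that list, and 3 of the 4 were miR-486 rows. miR-451a, whose hairpin is cut by Ago2 without Dicer, was at 732.9, 590.2 and 1015 CPM in control and at 231.9, 449.6 and 449.6 CPM in recovery. The log2 fold change was -1.05 ± 0.26 (edgeR FDR = 0.0192). The call was lost without control replicate 3 (edgeR FDR = 0.0736) and in 4 of 11 alternatives, among them libraries scaled by their totals (edgeR FDR = 0.0701). miR-486a-5p, encoded within Ank1, was at 51.1, 46.7 and 58.9 CPM in control and at 28.0, 28.5 and 33.3 CPM in recovery, a log2 fold change of -0.80 ± 0.15 (edgeR FDR = 0.00366). The row of miR-486b-3p held nearly the same counts and had -0.80 (edgeR FDR = 0.00366), and miR-486a-3p had -0.78 ± 0.15 (edgeR FDR = 0.00387). These 3 rows were called in all 6 fits with 1 library left out but not in a fit of all 9 samples (edgeR FDR 0.144 to 0.155). In TAA, miR-486a-5p was at -0.98 on the TMM scale, where it was not a DEM, and at 0.15 with library totals. The values of miR-451a in TAA were -1.71 and -0.59 on these scales. The arms of miR-144, transcribed with miR-451a, had -0.44 (edgeR FDR = 0.220) for miR-144-5p and -1.18 (edgeR FDR = 0.246) for miR-144-3p. Summed over the 4 red cell markers of the marker list, control livers had 659.1 to 1096 CPM and recovery livers 271.1 to 500.4 CPM. The amount of blood left in each liver was not tested.

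Of the other 4 lower miRNAs, 2 were low in reads and lay far from control. miR-205-5p, a miRNA of stratified epithelia, was at 55, 33 and 69 counts in control and at 18, 12 and 18 counts in recovery, a log2 fold change of -2.04 ± 0.37 (edgeR FDR = 0.00297). It was called in all 6 fits with 1 library left out, and it was not called in TAA (log2 fold change -0.34, or 0.77 with library totals, edgeR FDR = 0.405 and 0.0655). miR-363-3p, from the X-linked miR-106a cluster, was at 35, 11 and 35 counts in control and at 2, 1 and 13 counts in recovery (log2 fold change -2.64 ± 0.70, edgeR FDR = 0.0260). Its call was lost without control replicate 1, control replicate 3, recovery replicate 1 or recovery replicate 2 (edgeR FDR 0.0602 to 0.131) and in a fit of all 9 samples (edgeR FDR = 0.194).

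The remaining lower miRNAs changed by less than 2-fold. miR-881-3p, from an X-linked cluster active in testis, was at 29.8, 27.3 and 25.9 CPM in control and at 18.6, 17.5 and 14.3 CPM in recovery (log2 fold change -0.72 ± 0.17, edgeR FDR = 0.0133), after -1.69 for TAA. That call was lost without control replicate 1 (edgeR FDR = 0.0530) and in 3 of 11 alternatives, among them libraries scaled by their totals (edgeR FDR = 0.0698). miR-17-5p, the first miRNA of the growth-associated miR-17-92 cluster, was at 33.3, 36.7 and 35.6 CPM in control and at 25.6, 26.3 and 24.1 CPM in recovery (log2 fold change -0.47 ± 0.14, edgeR FDR = 0.0473). It was lost in each of the 6 fits that left out 1 library, control replicates 1 to 3 and recovery replicates 1 to 3 (edgeR FDR 0.0736 to 0.164), and in 9 of 11 alternatives. miR-20a-5p, which has the seed of miR-17-5p, had -0.39 ± 0.14 (edgeR FDR = 0.117).

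The hepatocyte miRNAs that TAA had lowered on the TMM scale were back near the saline level. miR-122-5p, the most abundant hepatocyte miRNA, was at 222700, 215900 and 210600 CPM in control and at 249700, 148200 and 165700 CPM in recovery. The recovery mice spread to both sides of the controls, and the log2 fold change of -0.20 had a 95% interval from -0.61 to 0.20, after -1.96 for TAA. Its reads cannot be told from those of miR-122b-3p, an antisense row with nearly the same counts. miR-148a-3p had a log2 fold change of -0.22 with a 95% interval from -0.54 to 0.09, after -1.64 for TAA. miR-192-5p was at 81760, 81640 and 76520 CPM in control and at 64830, 59320 and 68670 CPM in recovery, so all recovery mice lay below all controls. Its log2 fold change was -0.32 with a 95% interval from -0.55 to -0.08 (edgeR FDR = 0.0809), after -1.58 for TAA, which met the limits of a restored miRNA although the interval did not reach 0.

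miR-194-5p, encoded with miR-192, had -0.23 with a 95% interval from -0.43 to -0.03 (edgeR FDR = 0.165), after -1.42 for TAA. Their relative miR-215-5p, which has nearly the sequence of miR-192-5p, ran the other way. It was at 12.3, 26.8 and 9.53 CPM in control and at 23.0, 42.5 and 44.9 CPM in recovery, a log2 fold change of 1.19 ± 0.37 (edgeR FDR = 0.0626), and its value in TAA was -0.01.

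The 12 members of the miR-30 family lay close to control. On the TMM scale TAA had lowered 7 of them by at least 2-fold with a family median of -1.05, which was 0.06 with library totals. All 7 were restored, and the recovery changes of the 12 lay between -0.27 and 0.04 with a median of -0.08. miR-30a-5p was at 21570, 23630 and 24940 CPM in control and at 20800, 25980 and 20630 CPM in recovery (log2 fold change -0.06, 95% interval -0.32 to 0.21). miR-139-5p was restored as closely, with -0.02 and an interval from -0.24 to 0.21 after -1.34 for TAA. For miR-455-3p, which lies in the collagen gene Col27a1, control mice had 56.5, 61.1 and 61.5 CPM and recovery mice 77.1, 55.7 and 57.2 CPM (log2 fold change 0.09, 95% interval -0.26 to 0.43, after -1.91 for TAA). miR-29c-3p, of a family that represses collagen messages, was at 31.6, 27.3 and 27.6 CPM in control and at 28.7, 26.1 and 21.9 CPM in recovery. Its log2 fold change of -0.18 had an interval from -0.53 to 0.18, after -2.19 for TAA. The miR-29 family as a whole stayed undecided because miR-29b-2-5p, a minor arm, had an interval from -1.001 to 0.47.

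The families miR-101, miR-378, miR-203, miR-193/miR-365, miR-1843 and miR-22 were restored by the same rule, with medians of -0.18, -0.24, -0.39, -0.07, -0.14 and -0.22. The 4 miRNAs that the study took further were among the restored ones. miR-1843a-5p had -0.25 with an interval from -0.48 to -0.01, miR-193a-5p had -0.07 (-0.57 to 0.43), miR-194-2-3p had -0.26 (-0.60 to 0.09) and miR-30c-2-3p had -0.09 (-0.34 to 0.16). Over the 52 restored DEMs that TAA had lowered, the median was -1.36 in TAA and -0.17 in recovery, and 43 of the 52 had a recovery value below 0. With libraries scaled by their totals the recovery median of these 52 was 0.01 and 23 of them lay below 0, and the family medians turned to 0 or above for miR-101, miR-193/miR-365 and miR-1843 and stayed below 0 for miR-378, miR-203 and miR-22.

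Several miRNAs raised by TAA had also returned. miR-218-5p, which lies in introns of Slit2 and Slit3 and had the largest change in TAA of any restored miRNA named here (4.40), was at 11.7, 10.4 and 10.1 CPM in control and at 6.36, 11.8 and 14.3 CPM in recovery. The groups overlapped, and the log2 fold change was 0.02 with a 95% interval from -0.60 to 0.63. miR-34a-5p, a target of p53, was at 15.8, 10.7 and 11.3 CPM in control and at 14.5, 12.9 and 16.7 CPM in recovery (log2 fold change 0.22, interval -0.24 to 0.68, after 2.66 for TAA). miR-34c-5p had 0.46 with an interval from -0.03 to 0.95, after 2.67 for TAA, and miR-12182-3p had 0.33 (-0.19 to 0.84), after 2.17 for TAA.

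miR-146b-5p, induced by inflammatory signals, had 0.07 (-0.24 to 0.39), after 1.80 for TAA. The leukocyte list was restored as well, with 8 tested members between -0.16 and 0.26. In it, miR-223-3p of granulocytes and macrophages was at 8.44, 11.9 and 12 CPM in control and at 10.3, 9.37 and 15.1 CPM in recovery (log2 fold change 0.11, interval -0.43 to 0.65, after 1.15 for TAA). The miR-183/miR-96/miR-182 cluster had 3 DEMs of TAA and recovery changes between -0.13 and 0.10. The 3 other restored families had 1 or 2 DEMs of TAA each and recovery medians of -0.42 for the Sfmbt2 repeat cluster (6 tested), 0.04 for miR-99/miR-100/miR-125 (10 tested) and -0.23 for miR-15/miR-16 (8 tested).

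**Figure D5:**
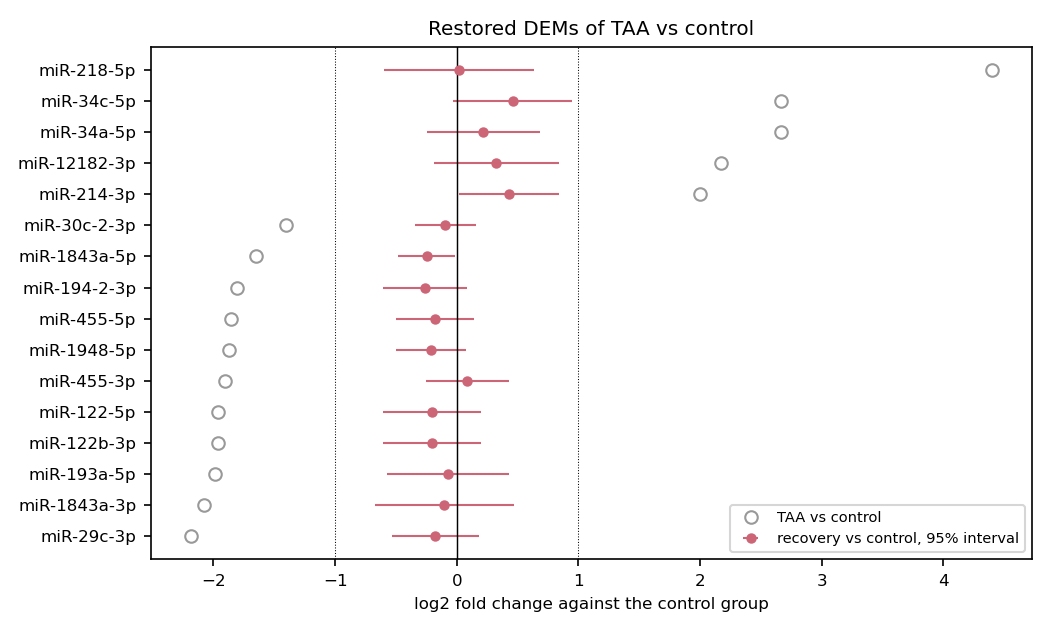
Log2 fold changes against control for 16 restored miRNAs, namely the 12 with the largest change in TAA among those with at least 10 CPM on average over the 9 samples and the 4 followed up by the study. Filled points are recovery with their 95% intervals, open circles are TAA, and dotted lines mark 2-fold. Each interval lies inside the dotted lines, and those of miR-214-3p and miR-1843a-5p do not reach 0.

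The precision of 3 mice per group set how small a remaining change could be bounded. The median 95% interval reached 0.52 on either side of the estimate, and for 248 of the 391 tested miRNAs (63.4%) the whole interval lay within 2-fold. Only 34 of the 77 restored DEMs also had an interval within 1.5-fold. In all, 10 families stayed undecided. miR-592-5p, which TAA had lowered by more than any other named miRNA (-3.12), was at 21.2, 32.7 and 28.1 CPM in control and at 48.0, 42.9 and 24.9 CPM in recovery, a log2 fold change of 0.50 with an interval from -0.06 to 1.06. miR-155-5p, a miRNA of activated leukocytes, was at 2.15, 2.88 and 2.999 CPM in control and at 3.98, 5.46 and 4.06 CPM in recovery. Its groups did not overlap, with a log2 fold change of 0.76 ± 0.27, but it was not called (edgeR FDR = 0.108). The let-7 family, with 16 tested members between -0.73 and 0.18, was undecided only because of the minor arm let-7f-1-3p (interval -1.56 to 0.09), while let-7g-5p was restored at -0.22 (-0.42 to -0.01) after -1.13 for TAA. Medians of the other undecided families were 0.17 for miR-322/miR-503, 0.04 for miR-26, -0.32 for miR-130/miR-301, 0.20 for miR-132/miR-212, -0.42 for the muscle list and -0.21 for the neural list.

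On the TMM scale several abundant families had no DEM of TAA and no call in recovery. miR-21a-5p, widely raised in tissue injury and among the most abundant miRNAs here, had a log2 fold change of -0.16 with an interval from -0.46 to 0.13. The endothelial miR-126a-3p had -0.03 (-0.22 to 0.17) and miR-143-3p of smooth muscle and stellate cells had -0.06 (-0.45 to 0.34). The recovery medians of the 13 families of this kind lay between -0.19 for miR-23/miR-27/miR-24 and 0.21 for the imprinted miRNAs of other loci. With library totals their TAA medians lay between 0.31 for miR-126 and 1.59 for the imprinted miRNAs of other loci, so whether TAA moved them depended on the scaling. Against the marker lists, the libraries were liver, with miR-122-5p at 148200 CPM or more in all 6. The 5 biliary markers summed to 471.1 to 615.2 CPM in control and to 982.9 to 1117 CPM in recovery, with 3 of the 5 called upward, and the part of bile duct cell number in this was not tested. The stellate cell list summed to 20510 to 25480 CPM in control and 17340 to 28830 CPM in recovery. Of this, miR-143-3p alone was 19950 to 24970 and 16720 to 28200 CPM, so the sum hardly reflects the other markers, of which miR-199a-3p was called upward. The leukocyte list summed to 160.6 to 180.2 CPM in control and 123.8 to 188.7 CPM in recovery, and the endothelial list to 6943 to 7244 and 6617 to 7173 CPM. Striated muscle markers were at 15 to 40.2 CPM in control and 6.95 to 29.5 CPM in recovery, pancreas markers at 1.84 CPM or less and neuronal markers at 5.46 CPM or less, with miR-124-3p at 0 in every library.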

How the data were processed

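Small RNA libraries from mouse liver were made from total RNA by the study. The authors mapped reads to mm10 and miRBase, for which their processing notes name Bowtie 1.3.0, and deposited 1 table with 1140 rows (1106 known and 34 predicted miRNAs). The deposited counts are whole read numbers per miRNA that the authors did not normalize. The deposited TPM equalled the count scaled to a common library total (CPM) within 5e-05. Handling of reads matching several miRNAs, and of strand, is not given in the sources used here, and 17 pairs of rows held nearly the same counts.

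The counts of recovery and control were tested with edgeR 4.0.16 in R 4.3.3 (filterByExpr with a minimum count of 10, TMM factors, glmQLFit and glmQLFTest, no covariates, Benjamini-Hochberg), which the study did with DESeq2. The SE was the size of the log2 fold change divided by the square root of F, and the 95% interval used the t quantile on the residual degrees of freedom. TAA was tested against control likewise. Alternatives were DESeq2 1.42.0, limma 3.58.1 on log2(TPM + 1), other scalings, filters and fits, and leaving out each library. The scripts were tested on simulated data. The members, lists, families and rules were chosen with earlier results of these data known. Named miRNAs were all called ones by family, with sample values for the 8 highest at 10 CPM or more, all lower ones and those under 2-fold, the 12 most changed restored ones, the leading member of each family, the cell type markers and the 4 followed up by the study. Any other miRNA named was chosen after its values were seen. No sequencing batch was given. Replicates are separate mice, and same-numbered mice are different animals. Precision covers only these 6 mice.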

Additional observations from a re-analysis of the deposited data

How the results depend on the processing

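No named result changed direction in a way that reversed a call. Of 1570 values of 94 named miRNAs under the alternatives, 1501 kept their side of the threshold, 51 lost it and 18 gained it, and 12 of the 26 named called miRNAs lost the call at least once. The reported numbers were 55 called, 44 DEMs, 11 called under 2-fold, 175 DEMs of TAA, 46 residual and 77 restored DEMs, and 12 residual families. With a minimum mean of 10 CPM they were 23 called, 13 DEMs, 80 DEMs of TAA, 19 residual, 42 restored and 7 residual families, since fewer miRNAs were tested. Without a filter 21 were called under 2-fold. A fit of all 9 samples gave 4 called under 2-fold and 7 residual families, and the cause was not tested. Without the Dlk1-Dio3 lists 16 were called, 5 were DEMs and 11 were residual. Requiring an interval within 1.5-fold left 34 restored. With 1 library left out, the number called under 2-fold ranged from 5 to 12, called from 47 to 58, DEMs from 37 to 46, residual from 35 to 49, restored from 62 to 71, residual families from 9 to 12 and DEMs of TAA from 158 to 187. DESeq2 called 58, of which 53 were among the 55, library totals turned the 105 raised and 70 lowered DEMs of TAA into 241 and 4, limma called 62 and shared 52, and scaling by library totals called 63 and shared 52. With the replicate number as a block 56 were called and 53 shared, but same-numbered mice did not deviate together (correlations of 0.10, -0.05 and -0.18). Family classes under the alternatives were computed after seeing the data. With 3 mice per group, changes well under 2-fold in miRNAs of a few CPM could not be bounded.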

Other observations

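miR-881-3p was chosen for a look at its neighbours after its value was seen. Within 50 kb of it on the X chromosome (GRCm38) the table listed 23 rows, and 6 had enough reads to test. TAA had lowered all 6 by at least 2-fold on the TMM scale. With library totals their TAA values lay between -1.10 and -0.03. In recovery 1 of the 6 was called, miR-881-3p, and 3 had an unadjusted edgeR p below 0.05, against 90 of 391 among all tested miRNAs. The median log2 fold change of the 6 was -0.72 on the TMM scale and -0.54 with libraries scaled by their totals. miR-871-3p was at 5.43 ± 0.46 CPM in control and 2.85 ± 1.12 CPM in recovery (n = 3 each) and was not called (log2 fold change -0.94 ± 0.30, edgeR FDR = 0.0667). miR-741-3p had -0.73 ± 0.31 (edgeR FDR = 0.190), miR-878-5p -0.71 ± 0.44 (edgeR FDR = 0.407), and miR-465b-5p and miR-465c-5p, near-identical copies whose reads are uncertain, -0.66 and -0.61. These 5 were at a few CPM, and a remaining change was not shown for any of them.

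Among the 749 rows too low to test, 15 were at 0 counts in every control library and above 0 in every recovery library. The Dlk1-Dio3 lists held 46 of the 749 rows and 10 of these 15. The opposite pattern was found in 3 rows.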
